A study of Mus musculus with 13 samples.

Results

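The genes described here are the ligands of transforming growth factor-β (TGF-β), its type I and type II receptors and a set of matrix genes used as its fibrotic targets, measured by bulk RNA-seq in the thymic stroma of young mice. They were chosen by symbol, with earlier results of these data known. The 9 genes, of 53379 in the count table, are the ligands Tgfb1, Tgfb2 and Tgfb3, the receptors Tgfbr1 and Tgfbr2, and the targets Tgfbi, Postn, Tnc and Fn1. All 9 passed the filter on low counts, which kept 19984 genes, and their counts per library ran from 201 for Tgfb1 to 267263 for Fn1.

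The study asked how thymic stroma responds to damage and repair. Its bulk libraries were made from polyA RNA of CD45- cells, the nonhematopoietic fraction of the thymus, from wild-type C57BL/6 mice aged 2 months. The 13 libraries comprised 4 at steady state and 3 at each of day 1, day 4 and day 7 after a sublethal dose of total body irradiation (TBI). In the labels the steady-state mice are untreated, whereas the count table names them as phosphate-buffered saline (PBS) controls of days 1, 4 and 7, so they were used as a group and are named here by the table (PBS d1 rep2, PBS d4 rep2, PBS d7 rep1 and PBS d7 rep2). The study's methods speak of the bulk libraries as biological replicates, a term they use for individual mice, whereas the labels do not tie libraries to animals. The p-values measure the spread between these libraries. The same 4 steady-state libraries served all 3 comparisons with steady state, and the day 1 libraries served both later comparisons with day 1.

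TGF-β is secreted in a latent complex that is held in the matrix by latent TGF-β-binding proteins and fibrillin and is released by integrins, proteases or thrombospondin. The active ligand binds the type II receptor, which phosphorylates the type I receptor, and the receptor complex then activates SMAD proteins that enter the nucleus. In fibroblasts the pathway is known for raising matrix and contractile genes in wound repair and fibrosis, and in the thymus fibroblasts form the capsule and septa and ensheath vessels.

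Libraries held between 15721866 and 52056896 counts. The fraction had the marker genes of its labelled cells in every library: Pdgfra, a fibroblast receptor, at 616 to 1282 CPM (the count divided by a library size in units of 1000000 that was scaled by the trimmed mean of M values, TMM), Pecam1, an endothelial adhesion molecule, at 199 to 432 CPM, and Epcam, an epithelial one, at 14.0 to 155 CPM. Ptprc, which encodes CD45 and should be low after this sort, was at 606 CPM in replicate 2 and 224 CPM in replicate 3 of day 7, against 4.07 to 119 CPM in the other libraries. The summed level of 6 thymocyte genes was 2517 and 1135 CPM in those 2 libraries and 14.6 to 413 CPM in the others. Red cell genes differed by group. The summed level of 4 erythroid genes was 1527 to 3497 CPM at steady state and 289 to 968 CPM at day 1. It was 6.32 to 9.29 CPM at day 4 and 247 to 668 CPM at day 7. Outside day 4, Alas2 made up most of it. At steady state, PBS d4 rep2 stood apart in collagen, with 26605 CPM of Col1a1 against 1122 to 6459 CPM in the other 3. Where a call described below was lost without these libraries, the value without them is given.

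Only Postn and Tnc gave a difference that passed the test in any comparison, so the 250 bases before their RefSeq start sites are shown (GRCm38.p6, at the start site nearest the annotated gene start, 5′ to 3′ on the strand of the gene). They lie at chr3:54360857-54361106 on the plus strand for Postn and at chr4:64047016-64047265 on the minus strand for Tnc. Capitals mark TATAAA, the core of the TATA box.
Postn: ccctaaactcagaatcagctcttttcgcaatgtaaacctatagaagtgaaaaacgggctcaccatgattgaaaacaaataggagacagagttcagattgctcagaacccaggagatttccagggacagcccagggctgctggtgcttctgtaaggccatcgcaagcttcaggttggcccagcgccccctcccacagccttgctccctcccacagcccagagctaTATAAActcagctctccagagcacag
Tnc: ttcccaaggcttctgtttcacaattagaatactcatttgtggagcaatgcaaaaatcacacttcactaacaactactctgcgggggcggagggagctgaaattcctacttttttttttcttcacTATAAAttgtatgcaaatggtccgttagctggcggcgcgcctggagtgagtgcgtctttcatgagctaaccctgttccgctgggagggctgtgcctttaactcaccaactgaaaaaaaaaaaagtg

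In Postn the TATAAA begins 26 bases before the start site, and in Tnc it begins 126 bases before it. Tgfb2 held it as well, 31 bases before its start. TATAAA was found on either strand in 12.4% of 32851 RefSeq promoter windows of this length. CAGAC, which contains the SMAD-binding core AGAC, was absent on both strands from the windows of Postn and Tnc. It was present in those of Tgfb2, Tgfbr2 and Tgfbi, against 42.2% of all windows. The core alone was not counted over all windows. Both printed windows hold it, as AGAC in Postn and as its reverse complement GTCT in Tnc. TGANTCA, the AP-1 element, was in none of the 7 members with an entry and in 6.75% of all windows. Tgfb3 and Fn1 had no entry. Such matches describe the letters in these windows and were not tied to any measured level.

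At steady state the members differed widely in their level per length (CPM per kilobase of exon). Fn1, which encodes fibronectin, was the highest at 308 ± 215 (SD, n = 4), followed by Postn at 133 ± 34.0, Tgfbr2 at 130 ± 46.9, Tgfb3 at 101 ± 61.5, Tnc at 72.9 ± 49.3 and Tgfbi at 65.6 ± 42.4. Tgfbr1 followed at 28.1 ± 8.71, Tgfb2 at 12.2 ± 7.16 and Tgfb1 at 3.57 ± 0.883. Each neighbour in this order overlapped the next in its range over the 4 libraries, except that Tgfbr1 (22.7 to 41.1) lay just above Tgfb2 (6.64 to 22.6) and Tgfb2 lay above Tgfb1 (2.45 to 4.49). Among the ligands Tgfb3 was therefore the highest per length and Tgfb1 the lowest in all 4 libraries. For Tgfb3, 12.4% of the exonic bases overlap other annotated genes. The default setting of the counting tool, which the study's methods state, does not use the strand, so its level is less certain.

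**Figure D1:**
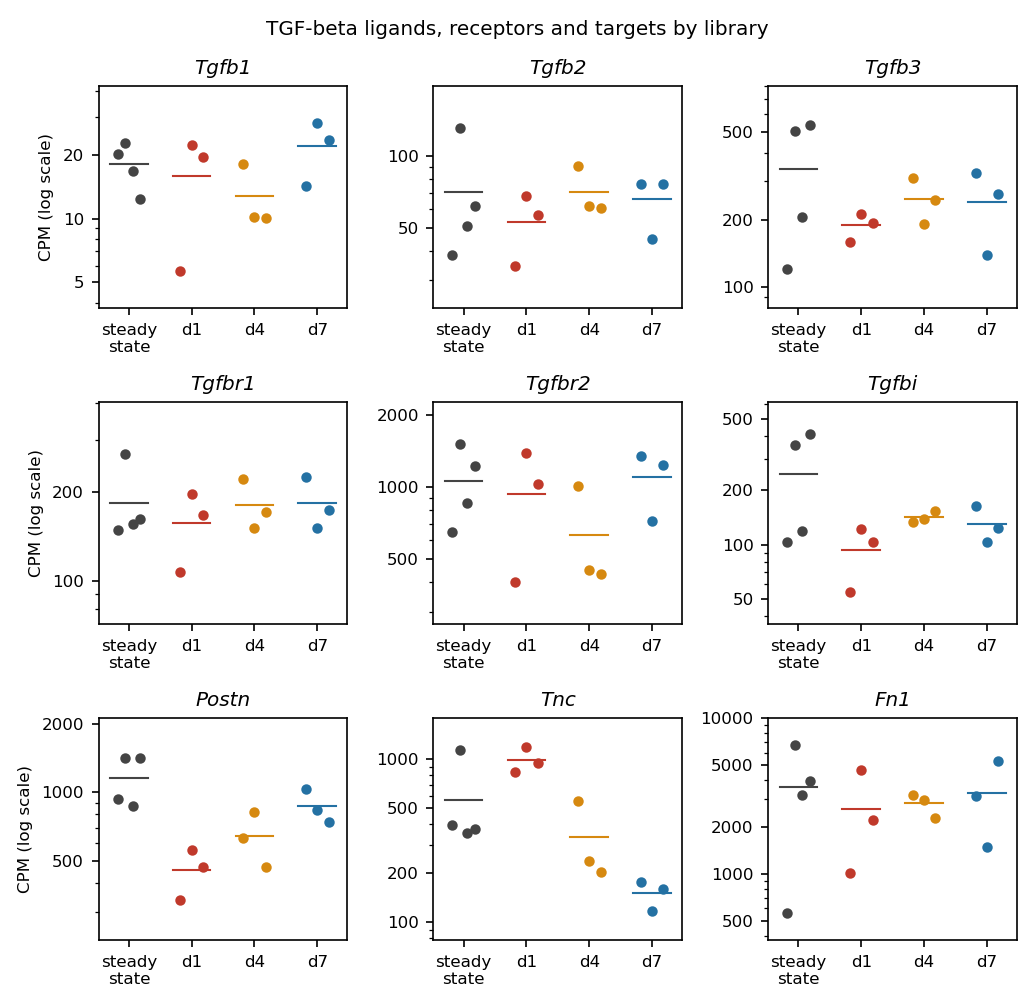
CPM (log scale) of the 9 genes in each of the 13 libraries, by group (steady state, then d1, d4 and d7 after TBI). Points are libraries and bars are group means. Postn is lower in all 3 day 1 libraries than in any steady-state library, and Tnc is lower at day 7 than in any other group.

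None of the 3 ligands passed the test in any of the 6 comparisons. Tgfb1, the ligand made by many blood and stromal cells (chr7:25687002-25705077), was at 20.2, 22.6, 16.8 and 12.3 CPM in PBS d1 rep2, PBS d4 rep2, PBS d7 rep1 and PBS d7 rep2, the order kept below. After TBI it was at 5.68, 22.3 and 19.5 CPM in replicates 1 to 3 of day 1, at 18.1, 10.2 and 10.1 CPM at day 4, and at 14.3, 28.1 and 23.5 CPM at day 7. The groups overlapped, with a single low library at day 1 and 2 low libraries at day 4. Against steady state it had a log2 fold change of −0.19 (SE 0.422, adjusted p = 0.855) at day 1, −0.50 (SE 0.426, adjusted p = 0.598) at day 4 and 0.29 (SE 0.418, adjusted p = 0.903) at day 7. Its highest levels were in the 2 day 7 libraries with the most thymocyte and Ptprc reads, and its log2 fold change at day 7 was −0.29 without them (an alternative added after seeing the data). The summed level of 4 platelet genes, from cells that store this ligand, was 18.8 to 27.9 CPM at day 1 and 8.03 to 16.3 CPM at steady state. These 4 genes differed, with log2 fold changes at day 1 from −0.20 to 2.61, and only Ppbp passed the test. Itga2b overlapped, at 8.67 to 12.5 CPM at day 1 and 2.68 to 14.1 CPM at steady state. The part of thymocytes and platelets was not tested.

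Tgfb2, a ligand with prominent roles in development (chr1:186622792-186705989), was at 38.5, 131, 50.8 and 61.8 CPM at steady state. It was at 34.5, 67.9 and 56.3 CPM at day 1, at 90.5, 61.4 and 60.4 CPM at day 4, and at 76.4, 44.6 and 76.4 CPM at day 7. The groups overlapped, and PBS d4 rep2 was the highest of all 13 libraries. Against steady state its log2 fold changes were −0.42 (SE 0.394), 0.00 (SE 0.391) and −0.10 (SE 0.391) at days 1, 4 and 7. The first of these was 0.071 without PBS d4 rep2 and 0.52 when libraries were scaled by fibroblast markers, so the level at day 1 had no stable direction.

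Tgfb3, the third ligand (chr12:86056745-86079041), was at 121, 501, 206 and 535 CPM at steady state. It was at 160, 214 and 195 CPM at day 1, at 311, 192 and 246 CPM at day 4, and at 325, 140 and 263 CPM at day 7. The spread was widest at steady state, where 2 libraries lay above all libraries after TBI and PBS d1 rep2 lay below them. The mean was 341 ± 208 CPM (SD, n = 4) at steady state and 190 ± 27.4 CPM (SD, n = 3) at day 1, a log2 fold change of −0.85 (SE 0.458, adjusted p = 0.37) that turned to 0.22 under fibroblast marker scaling.

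Neither receptor passed the test in any comparison. Tgfbr1, the type I receptor kinase that activates SMADs (chr4:47353222-47414931), was at 148, 269, 156 and 161 CPM at steady state. It was at 107, 196 and 167 CPM at day 1, at 221, 151 and 171 CPM at day 4, and at 225, 151 and 174 CPM at day 7. All groups overlapped, and its log2 fold changes against steady state at days 1, 4 and 7 were −0.23 (SE 0.278), −0.02 (SE 0.277) and 0.00 (SE 0.277). On the linear scale its mean at day 7, 183 ± 37.5 CPM (SD, n = 3), stood beside 184 ± 56.9 CPM (SD, n = 4) at steady state.

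Tgfbr2, the type II receptor that binds the ligand (chr9:116084293-116175360), was at 646, 1513, 860 and 1224 CPM at steady state. It was at 401, 1386 and 1026 CPM at day 1, at 1013, 450 and 434 CPM at day 4, and at 1352, 722 and 1234 CPM at day 7. Replicate 1 at day 1, and replicates 2 and 3 at day 4, lay below every steady-state library, while the other libraries of those days did not. Its fitted difference from steady state on the log2 scale was −0.18 (SE 0.449) at day 1, −0.75 (SE 0.456, adjusted p = 0.477) at day 4 and 0.06 (SE 0.447) at day 7. The same 3 libraries had the lowest levels of Ltbp4, a latent TGF-β-binding protein, at 65.2, 152 and 125 CPM against 344 to 1708 CPM in the other 10. This was not particular to the pathway. They were also lowest for the integrin subunit gene Itgb1 (263, 297 and 331 CPM against 653 to 1211 CPM). The fibroblast marker Fbln1 was alike (136, 548 and 498 CPM against 613 to 2080 CPM), whereas Pdgfra was not lowest in them.

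The clearest differences were in the targets. At day 1, Postn fell, and it was the only member of 9 to pass the test against steady state, where 2.35% of all genes tested passed in either direction and 0.671% as lower. Postn encodes periostin, a matricellular protein that fibroblasts make in wounds and that binds integrins (chr3:54361109-54391037). The study also lists it, with Ptn, as a marker of medullary fibroblasts, and the part of those cells was not tested. Postn was at 931, 1414, 872 and 1410.4 CPM at steady state and at 337, 560 and 472 CPM at day 1. All 3 day 1 libraries lay below the 4 steady-state libraries, and Postn was the only member whose libraries did not overlap in this comparison, in which 15.8% of all genes did not overlap. The level fell 2.53-fold (log2 fold change −1.34, SE 0.288, adjusted p = 0.0266).

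Periostin RNA was intermediate at the later times. It was at 633, 817 and 472 CPM at day 4, below all steady-state libraries (the only member without overlap there, beside 14.7% of all genes), and at 1038, 839 and 744 CPM at day 7, within or below their range. The log2 fold changes against steady state were −0.85 (SE 0.283, adjusted p = 0.255) at day 4 and −0.40 (SE 0.279, adjusted p = 0.636) at day 7. All day 7 libraries were above all day 1 libraries, with a log2 fold change of 0.94 (SE 0.299) that missed the threshold (adjusted p = 0.0725, and 0.0363 with DESeq2). In that comparison Postn and Tnc did not overlap, 2 of 9 members beside 27.5% of all genes.

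The call of Postn at day 1 was close to the threshold. Its sign was the same in all 15 alternatives, and it passed in 7 of them. Leaving out any single day 1 library gave adjusted p-values of 0.13, 0.051 and 0.0769 without replicates 1, 2 and 3, and leaving out PBS d7 rep1 or PBS d7 rep2 gave 0.0517 and 0.0813. It passed without PBS d1 rep2 (0.0331) and without PBS d4 rep2 (0.0376). Each count column also ends in a tag that the sources do not explain, and with the start of the tag as a covariate, an alternative added after seeing the data, the log2 fold change was −1.27 (adjusted p = 0.0371). Within the libraries whose tag starts with neither k3 nor kk, steady state was at 931 and 872 CPM and day 1 at 560 and 472 CPM, and within those of kk the values were 1410.4 and 337 CPM.

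Most fibroblast markers were lower at day 1, as Postn was, but Pdgfra was not. The summed level of 5 fibroblast markers (Pdgfra, Dcn, Lum, Fbln1 and Dpt) was 8759 to 23918 CPM at steady state and 7546 to 8949 CPM at day 1. At day 4 it was 15233 to 18803 CPM, within the steady-state range, while Postn still lay below all steady-state libraries. Dcn, at 5185 to 16961 CPM, was the largest of the 5 in every library and weighs most in this sum. None of the 5 passed the test at day 1, and none was at 0 in any library. Dcn and Lum, which encode collagen-binding proteoglycans, had log2 fold changes of −1.10 and −0.99, Fbln1 and Dpt had −0.90 and −1.47, and Pdgfra had 0.37. With libraries scaled by these markers instead of TMM, the log2 fold change of Postn was −0.51 (adjusted p = 0.325) beside a median of 0.59 over all genes. In bulk RNA, fewer cells of a type and less RNA per cell cannot be told apart.

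**Figure D2:**
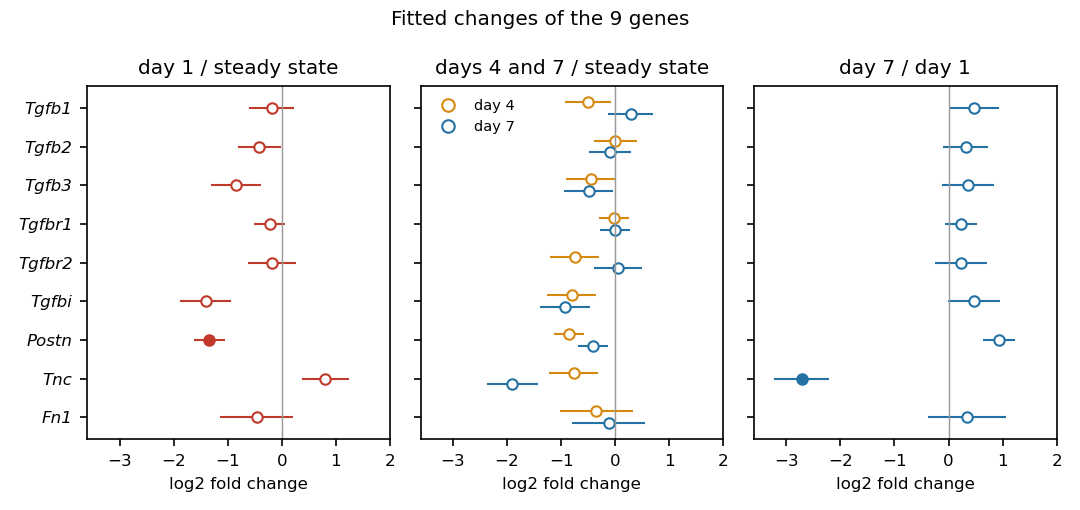
Log2 fold changes of the 9 genes with their standard errors (bars) from 1 fit of all 13 libraries, for day 1, days 4 and 7 against steady state, and day 7 against day 1. Filled points passed the test at an adjusted p of 0.05: Postn at day 1 and Tnc between day 1 and day 7.

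Tnc had its highest mean level at day 1 and fell afterwards. It encodes tenascin-C, a matrix glycoprotein that is induced in injured tissue and modulates cell adhesion (chr4:63959785-64047015). It was at 833, 1198 and 946 CPM at day 1 and at 178, 117 and 160 CPM at day 7, so that the groups were far apart. The fall from day 1 to day 7 was 6.56-fold (log2 fold change −2.71, SE 0.508, adjusted p = 0.00927), and Tnc was the only member of 9 to pass in this comparison, in which 8.13% of all genes passed in either direction and 4.45% as lower. It passed in 14 of 15 alternatives, with adjusted p-values of 0.014 to 0.0494 when single libraries were left out. With replicates 2 and 3 of day 7 both left out, which leaves a lone library that is assumed to vary like the other groups, the log2 fold change was −2.44 (adjusted p = 0.406). Of the tag groups only kk held both times, with 833 CPM at day 1 and 160 CPM at day 7.

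The position of steady state between these times was less certain. Tnc was at 397, 1140.5, 353 and 376 CPM at steady state, with PBS d4 rep2 as high as the day 1 libraries and the other 3 well below them. The log2 fold change of day 1 against steady state was 0.81 (SE 0.443, adjusted p = 0.376) with all libraries and 1.40 (adjusted p = 0.0465) without PBS d4 rep2. At day 4 it was at 557, 239 and 203 CPM, with a log2 fold change against steady state of −0.77 (SE 0.454, adjusted p = 0.468). At day 7 every library lay below every steady-state library, the only member of 9 for which this held (7.49% of all genes did not overlap), with a log2 fold change of −1.90 (SE 0.474, adjusted p = 0.117). DESeq2 called this last difference (adjusted p = 0.00435).

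The balance between the targets shifted within the libraries themselves. The ratio of Tnc to Postn, which does not depend on the scaling between libraries and was computed after the values had been seen, was 0.267 to 0.807 at steady state (median 0.415) and 2.01 to 2.47 at day 1 (median 2.14). It was 0.292 to 0.88 at day 4 (median 0.43) and 0.139 to 0.215 at day 7 (median 0.171). Day 1 lay above all other groups and day 7 below them, which is given as a description without a test.

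**Figure D3:**
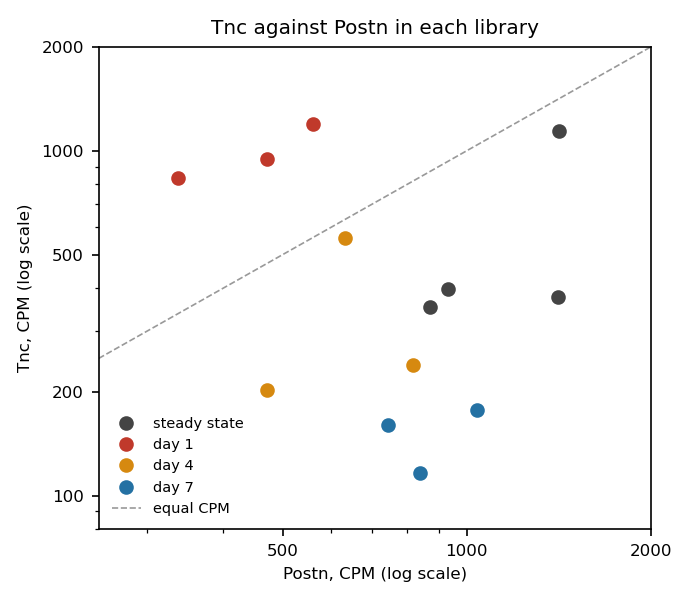
CPM of Tnc against CPM of Postn in each library (both axes on a log scale), coloured by group, with a dashed line where both are equal. The day 1 libraries lie above the line and those of the other groups below it, with day 7 farthest below.

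Tgfbi, a secreted matrix protein named for its induction by TGF-β (chr13:56609523-56639562), was at 103, 356, 118 and 413 CPM at steady state. It was at 54.2, 122 and 104 CPM at day 1, at 133, 139 and 153 CPM at day 4, and at 163, 103 and 123 CPM at day 7. The steady-state libraries fell apart, with PBS d4 rep2 and PBS d7 rep2 above all others and the remaining pair within the range after TBI. At day 1 the log2 fold change was −1.41 (SE 0.468), slightly larger than that of Postn, yet it did not pass (adjusted p = 0.149). At days 4 and 7 it was −0.81 (SE 0.458) and −0.93 (SE 0.46). All 3 day 4 libraries lay above all day 1 libraries, with a log2 fold change of 0.60 (SE 0.482, adjusted p = 0.624) that turned to −0.32 under fibroblast marker scaling.

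Fn1, the adhesive glycoprotein on which other matrix proteins assemble (chr1:71585520-71653200), had the largest standard errors of the members. It was at 562, 6682, 3208 and 3946 CPM at steady state, at 1005, 4610.4 and 2218 CPM at day 1, at 3219, 2980 and 2284 CPM at day 4, and at 3143, 1481 and 5305 CPM at day 7. The steady-state libraries alone covered the range of all groups. Its log2 fold changes against steady state were −0.46 (SE 0.677), −0.35 (SE 0.675) and −0.12 (SE 0.672) at days 1, 4 and 7.

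No member passed the edgeR test in the remaining 4 comparisons. At day 4 against steady state 0 of 9 members passed with edgeR and with DESeq2, 1 (Postn) was under an unadjusted p of 0.05 (13% of all genes), and 0.29% of all genes passed. At day 7 against steady state edgeR passed 0 members and DESeq2 1 (Tnc), 1 (Tnc) was under an unadjusted p of 0.05 (13.5% of all genes), and 0.005% of all genes passed. At day 4 against day 1 edgeR passed 0 and DESeq2 1 (Tnc), 1 (Tnc) was under an unadjusted p of 0.05 (13.7% of all genes) and 1.43% of all genes passed, while Tnc and Tgfbi did not overlap between these days (26.3% of all genes). The log2 fold change of Tnc there was −1.58 (SE 0.488, adjusted p = 0.157). Between day 4 and day 7 both tools passed 0, 1 (Tnc, log2 fold change −1.14, SE 0.483) was under an unadjusted p of 0.05 (18.7% of all genes) and 3.9% of all genes passed. Tnc alone did not overlap between them (26.2% of all genes). The median log2 fold change of the 9 members was −0.42 at day 1, −0.50 at day 4 and −0.12 at day 7 against steady state, beside −0.10, −0.13 and 0.00 over all genes.

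The other genes of the pathway were taken from 7 lists of 61 genes, all of which passed the filter. At day 1 against steady state 1 rose and 2 fell, or 4.92% of the 61 beside 2.35% of all genes, and DESeq2 passed 5 (these 3 with Eng and Tagln). At days 4 and 7 none passed with edgeR, where 4 and 1 were under an unadjusted p of 0.05 and DESeq2 passed 0 and 0. From day 1 to day 4, 2 rose and 1 fell (4.92% beside 1.43%), and DESeq2 passed 6. From day 1 to day 7, 3 rose and 4 fell, or 11.5% of the 61 beside 8.13% of all genes, and DESeq2 passed 11. Without replicates 2 and 3 of day 7, which leaves a lone library at that time, none of these 7 passed with edgeR (adjusted p = 0.105 for Fap, 0.179 for Itga8, 0.456 for Tagln, 0.481 for Eng, 0.533 for Tpm2, 0.605 for Itgb6 and 0.903 for Nrros), and 0 of all genes did. Between day 4 and day 7 none passed with edgeR, 4 were under an unadjusted p of 0.05 and DESeq2 passed 0.

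**Figure D4:**
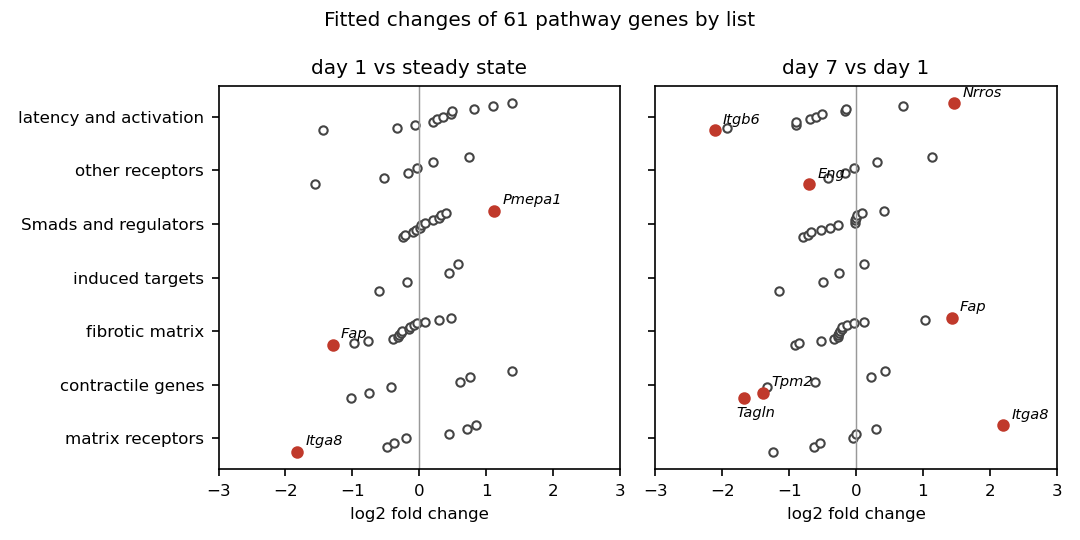
Log2 fold changes of the 61 pathway genes by list, for day 1 against steady state and day 7 against day 1. Filled, named points passed the test at an adjusted p of 0.05: 3 genes in the first comparison and 7 in the second.

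Of 15 genes of fibrotic matrix, Fap alone changed at day 1. It encodes fibroblast activation protein, a membrane protease of activated fibroblasts. It was at 63.4, 58.5, 54.5 and 53.5 CPM at steady state and at 18.5, 24.6 and 27.2 CPM at day 1, a 2.45-fold fall (log2 fold change −1.29, SE 0.234, adjusted p = 0.00918). It was back at 51.4, 75.3 and 53.5 CPM at day 4 and at 69.3, 74.0 and 45.8 CPM at day 7, and rose from day 1 to both times (log2 fold changes 1.36 and 1.43, adjusted p = 0.0139 and 0.00648), although the rise to day 4 passed in only 7 of 14 alternatives. Under fibroblast marker scaling neither rise passed (log2 fold changes 0.39 and 0.73, adjusted p = 0.503 and 0.314). All 3 day 1 libraries lay below steady state for Fap as for Postn, and the day 4 libraries overlapped steady state for Fap and not for Postn. The fall of Fap held without each single library of these groups, and its log2 fold change was −0.62 (adjusted p = 0.408) under fibroblast marker scaling. The collagens and lysyl oxidases of the list did not pass in any of the 6 comparisons, and their median with the rest of the list was −0.26 at day 1.

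Among 7 receptors of the matrix, Itga8 changed. It encodes the α8 integrin subunit, which binds fibronectin and tenascin-C. It was at 39.7, 21.7, 42.0 and 24.3 CPM at steady state and at 6.76, 5.80 and 14.4 CPM at day 1, a 3.54-fold fall (log2 fold change −1.82, SE 0.351, adjusted p = 0.0139). It was at 33.9, 27.9 and 39.6 CPM at day 4 and at 38.5, 47.3 and 38.8 CPM at day 7, and rose from day 1 to both (log2 fold changes 1.91 and 2.20, adjusted p = 0.0199 and 0.00579), the first in 7 of 14 alternatives. Without replicate 1 or 2 of day 1 the fall missed the threshold (adjusted p = 0.079 and 0.0717), as it did under fibroblast marker scaling (log2 fold change −1.28, adjusted p = 0.174). That scaling also ended both rises (0.98 and 1.52, adjusted p = 0.222 and 0.121). Ptn, named after its values were seen, is listed by the study together with Postn as a marker of medullary fibroblasts. Ptn was at 234 to 536 CPM at steady state and 133 to 157 CPM at day 1. Its log2 fold change at day 1 was −1.24 (SE 0.312, adjusted p = 0.0589), and it rose from day 1 to day 7 by 1.55 (adjusted p = 0.015). The rise passed in 9 of 15 alternatives. It missed the threshold without any single day 1 library (adjusted p up to 0.0581), without replicate 2 of day 7 (0.0533) and without replicates 2 and 3 of day 7 (0.134), and was 0.79 (0.345) under fibroblast marker scaling.

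Of 12 SMADs and regulators, Pmepa1 rose at day 1. It encodes a membrane protein that is induced by TGF-β and restrains SMAD signalling. It was at 12.6, 22.0, 11.2 and 20.0 CPM at steady state and at 43.4, 36.0 and 27.5 CPM at day 1, a 2.17-fold rise (log2 fold change 1.12, SE 0.267, adjusted p = 0.0478). It was at 16.2, 16.4 and 13.4 CPM at day 4 and at 22.5, 17.4 and 21.9 CPM at day 7. Every day 1 library lay above all others, but the call rested on single libraries: it passed in 6 of 15 alternatives and, of the 7 that left out 1 library, only without PBS d4 rep2, the others giving adjusted p-values of 0.0507 to 0.187. The 11 other genes of the list did not pass in any comparison.

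Of 4 induced targets, none passed the edgeR test in any of the 6 comparisons, with 0 under an unadjusted p of 0.05 at day 1 against steady state (17.2% of all genes) and 1 between day 1 and day 7 (23.9% of all genes), where DESeq2 called Bhlhe40. The list's most abundant genes, Junb and Bhlhe40, both transcription factors, had log2 fold changes at day 1 of −0.60 (SE 0.518) and 0.58 (SE 0.31).

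Of 6 contractile genes, Tagln fell from day 1 to day 4 (log2 fold change −1.93, SE 0.413, adjusted p = 0.0356), and Tagln and Tpm2 fell from day 1 to day 7 (−1.67 and −1.39, SE 0.408 and 0.352, adjusted p = 0.0265 and 0.0304). Tagln is named after its values were seen. The genes encode transgelin and β-tropomyosin, which bind actin filaments in contractile cells. Tagln was at 10.5, 14.5, 4.88 and 5.76 CPM at steady state, at 33.1, 20.0 and 16.7 CPM at day 1, at 5.36, 5.50 and 7.37 CPM at day 4 and at 6.69, 8.81 and 6.40 CPM at day 7. The fall of Tagln to day 4 passed without replicate 3 of day 1 and missed the threshold without each of the other 5 libraries of these days (adjusted p = 0.0784 to 0.195) and with the replicate block (0.131). Leaving out single libraries gave adjusted p-values of 0.043 to 0.101 for Tagln and 0.0479 to 0.105 for Tpm2 at day 7. The day 1 libraries of Tagln lay above all others, although 67.9% of its exonic bases overlap other genes and its counts are uncertain for that reason. Acta2, smooth muscle actin and the most abundant of the list, had a log2 fold change of 0.61 (SE 0.439) at day 1 and −1.34 (SE 0.481, adjusted p = 0.108) from day 1 to day 7. The summed level of 3 smooth muscle and pericyte markers, of which Acta2 and Myl9 are also in this list, was 364 to 1052 CPM at steady state, 597 to 915 CPM at day 1 and 299.8 to 522 CPM at day 7. Only Acta2 was higher at day 1. The log2 fold changes of the 3 ran from −0.57 to 0.61 there, with a median of −0.42. Rgs5 was at 95.9 to 154 CPM at day 1 and 114 to 258 CPM at steady state. The part of smooth muscle cells and pericytes was not tested.

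**Figure D5:**
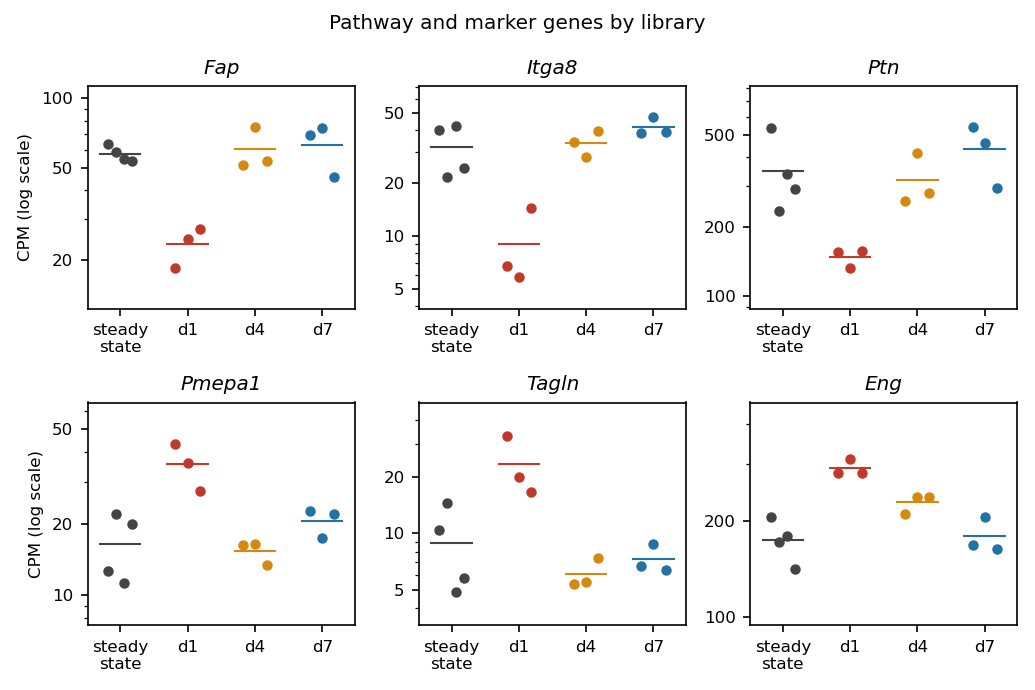
CPM (log scale) of Fap, Itga8, Ptn, Pmepa1, Tagln and Eng in each library by group, with bars at group means. Fap, Itga8 and Ptn are lowest in the 3 day 1 libraries, and Pmepa1, Tagln and Eng are highest in them.

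Of 11 genes of latency and activation, none passed against steady state. Its most abundant members, Fbn1, which encodes fibrillin-1, and Ltbp4, had log2 fold changes at day 1 of 0.48 (SE 0.585) and −1.44 (SE 0.728). Of the exonic bases of Fbn1, 20.1% overlap another annotated gene, so its level is less certain. From day 1 to day 7, Itgb6, an epithelial integrin subunit that activates latent TGF-β, fell from 4.34 to 5.77 CPM to 0.651 to 1.62 CPM (log2 fold change −2.11, SE 0.57, adjusted p = 0.0398). Nrros, which presents latent TGF-β1 on myeloid cells, rose by 1.47 (SE 0.409, adjusted p = 0.0455) and was at 19.7, 83.4 and 40.3 CPM at day 7, highest in the libraries with the most Ptprc. Without replicates 2 and 3 of day 7 its log2 fold change was 0.23. Over 5 macrophage markers the summed level was 24.3, 54.7 and 48.8 CPM in replicates 1 to 3 of day 7. At day 1 this sum was 35.0 to 47.8 CPM, and at steady state 28.0 to 50.5 CPM. Between day 1 and day 7 these markers had log2 fold changes from −1.10 to 1.75. The part of myeloid cells was not tested. The summed level of 6 epithelial markers, none of which was at 0 in any library, was 1319 to 2631 CPM at day 1 and 729.8 to 1403 CPM at day 7. The markers differed. The means of Epcam, H2-Aa, Krt5 and Krt8 were lower at day 7 than at day 1, and those of Psmb11 and Prss16 were higher. Psmb11 was at 1.78, 1.58 and 88.1 CPM at day 1 and 58.9 to 125 CPM at day 7. Prss16 was at 6.87, 16.9 and 451 CPM at day 1 and 187 to 399 CPM at day 7. The part of epithelial cells was not tested. Itgb6 passed in 7 of 15 alternatives and Nrros in 4 of 15. Both genes are named after their values were seen, as is Thbs1, which encodes thrombospondin-1. Thbs1 was at 404, 673 and 360 CPM at day 1 and 85.0 to 454 CPM at steady state. It was at 72.5 to 135 CPM at day 4 and 82.1 to 195 CPM at day 7. With edgeR it did not pass in any comparison, while DESeq2 called its falls from day 1 to day 4 and to day 7.

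Of 6 other receptors, none passed against steady state with edgeR, while DESeq2 called Eng at day 1. Tgfbr3, or betaglycan, which presents TGF-β2 to the type II receptor, had a log2 fold change of −0.53 (SE 0.288) at day 1. Eng, the endothelial coreceptor endoglin, was at 281 to 312 CPM at day 1, above the 142 to 206 CPM of steady state, with a log2 fold change of 0.74 (SE 0.181, adjusted p = 0.0529), and fell from day 1 to day 7 by 0.70 on the log2 scale (SE 0.196, adjusted p = 0.045), which missed the threshold without any single library of these days (adjusted p = 0.0682 to 0.124). The summed level of 4 endothelial markers was 460 to 589 CPM at steady state, 511 to 856 CPM at day 1 and 468 to 611 CPM at day 7. The markers differed at day 1, with log2 fold changes from −1.41 to 1.10. Plvap was at 21.5, 508 and 344 CPM there, against 104 to 177 CPM at steady state. Cldn5 was at 18.5 to 62.4 CPM, against 75.3 to 108 CPM. The part of endothelial cells was not tested.

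The genes whose log2 CPM followed each member most closely over the 13 libraries, among 11459 genes of at least 5 CPM on average, differed between members. These correlations are across libraries that share preparation, depth and cell makeup, and are given as a description. Tnc was followed most closely by Spp1 (Pearson's r = 0.901), which encodes the matricellular protein osteopontin, and by Chst11 and Rai14 (0.87 and 0.864), while Postn was followed by Osbpl1a, Zmym5 and the collagen-binding integrin subunit Itga11 (0.912, 0.901 and 0.901). With group means removed, these values fell to between 0.575 and 0.804. Fn1 was followed by Lgr5, Wt1 and Fbln2 (0.973, 0.945 and 0.937), Tgfbi by Pdgfrl, Dpt and Pamr1 (0.93, 0.923 and 0.912), Tgfb3 by Slc6a2, Aig1 and Snx24 (0.946, 0.941 and 0.934), and Tgfb2 by Mrc2, Rab31 and Enpp3 (0.936, 0.929 and 0.923). For these 4, and for Tgfbr2, Tgfbr1 and Tgfb1 given next, the values with group means removed were 0.9 or above. Tgfbr2 was followed by Pdia3, Pxdn and Mettl9 (0.984, 0.971 and 0.97), Tgfbr1 by Vhl, Pcdhgb1 and Tgfb2 (0.931, 0.92 and 0.92), and Tgfb1 by Nup50, Ubap2 and Rlf (0.975, 0.968 and 0.953). Tgfb2 and Tgfbr1 were the pair of members with the highest value, whereas Postn and Tnc had −0.22 over all libraries and 0.45 with group means removed.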

How the data were processed

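The authors trimmed reads with Trimmomatic 0.38, aligned them with STAR 2.7.0e to GRCm38.p5 (mm10) and counted them per gene with featureCounts 1.6.3, according to the submitters' processing notes. The deposited values are whole-number counts per gene and library, without normalization. The table's other column, exonic length, gave levels per kilobase. Symbols and positions came from GENCODE M21 (GRCm38), promoters from RefSeq (GRCm38.p6).

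edgeR 4.0.16 in R 4.3.3 fitted all 13 libraries with a term for group (TMM, filterByExpr with a minimum count of 10, quasi-likelihood F-test). P-values were adjusted by Benjamini-Hochberg over 19984 genes in each comparison and passed at 0.05. Standard errors are the log2 fold change over the square root of F. The steps were tested on simulated data. The members and the gene lists were chosen with earlier results of these data known.

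The text names the 9 members in all 6 comparisons. Of each pathway list it names up to 4 genes with the largest change among those past the threshold against steady state, or else the 2 most abundant. For each member it names the 3 genes with the highest Pearson correlation of log2 CPM. Genes outside the rule are marked. An item of the lists is not reported here.

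Alternatives were DESeq2 1.42.0, RLE normalization, no filter, at least 10 counts in every library, scaling by fibroblast markers, only the 2 groups compared, a replicate block and each library left out. The start of the column tag as a covariate, and day 7 without replicates 2 and 3, were added after seeing the data. Figures were drawn with Python 3.11.15 and matplotlib 3.10.9.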

Additional observations from a re-analysis of the deposited data

Results flagged for a closer look

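Dixon's ratio was used on the 4 steady-state libraries, for the 9 members and 15 other named genes, to find a library far from the other 3, which chance alone gives in about 1 of 20 genes. Tnc (1140.5 CPM in PBS d4 rep2 against 353 to 397 CPM) and Tgfbr1 (268.5 CPM in PBS d4 rep2 against 148 to 161 CPM) passed its 95% critical value, with ratios of 0.944 and 0.891. Among the other named genes Junb did, at 1432 CPM in PBS d1 rep2 against 456 to 530 CPM.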

How the results depend on the processing

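At day 1 against steady state, 1 of 9 members passed the test, and the count was 0 with only the 2 groups compared and 0 with the replicate block by the numbers of the column names. Leaving out single libraries gave 0 to 2. With fibroblast marker scaling the count was 1, but the member was Tnc (adjusted p = 0.0188) in place of Postn. At day 7 against steady state 0 passed, and 1 (Tnc) did with DESeq2 and 1 with no filter. At day 4 against day 1 the count of 0 became 1 (Tnc) with DESeq2 and 1 with fibroblast marker scaling. At day 7 against day 1 the count of 1 became 2 with DESeq2 and 0 without replicates 2 and 3 of day 7. The counts of 0 at day 4 against steady state and between days 4 and 7 were 0 in every alternative run.

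Over 54 member values and 810 alternatives, 8 with a direction beyond the standard error changed sign, none of them past the threshold. Under fibroblast marker scaling these were Tgfb1 between day 1 and day 7 (−0.12), Tgfb2 at day 1 against steady state (0.52) and between day 1 and day 4 (−0.50), Tgfb3 at day 1 (0.22), and Tgfbi (−0.32) and Postn (−0.48) between day 1 and day 4. Tgfb1 between day 1 and day 7 was −0.12 without replicates 2 and 3 of day 7, and Tgfb2 at day 1 was −0.64 to 0.071 with single libraries left out, the highest without PBS d4 rep2. The cause was not tested. That scaling moved the median of all genes by 0.69 between day 1 and steady state and turned the share of called genes that were higher from 71.4% to 99.0% there, from 17.2% to 0% at day 4, and, between day 1 and days 4 and 7, from 24.9% to 0% and from 45.2% to 14.6%. Between day 4 and day 7 it went from 71.0% to 99.2%.

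Genes called over all alternatives numbered 209 to 1688 (469 as reported) at day 1, 19 to 645 (58) at day 4 and 0 to 1081 (1) at day 7 against steady state, and 56 to 1307 (285), 0 to 2940 (1625) and 0 to 1919 (779) in the day 4 and day 7 comparisons with day 1 and with each other. Libraries of the same replicate number did not deviate together (r of −0.67 to 0.196), so the numbers were not taken as pairs. With the replicate block by the labels' numbers, Tnc between day 1 and day 7 gave −2.76 (adjusted p = 0.0252), and by those of the column names Fap at day 1 −1.17 (0.0654) and Postn at day 1 −1.16 (0.138). With 3 or 4 libraries a group, the standard errors of member log2 fold changes were 0.277 to 0.717, which limits the size of difference that could pass.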
